A study of Mus musculus with 8 samples.

Results

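SMAD4 binding was examined at 6 genes whose products build or organise the extracellular matrix and which are known as TGF-beta-induced genes: Fn1, Tgfbi, Thbs1, Ltbp2, Ccn1 and Ccn2. Their peaks were all called peaks with a summit inside the gene body or within 100 kb of it, or within 200 kb for Fn1. This gave 15 of the 4333 peaks from cells stimulated with BMP9/10 and 3 of the 1133 peaks from unstimulated cells. The ChIP-seq was made in MS1, an established line of endothelial cells from mouse pancreatic islets. Peak lists measure no transcripts, so the identity of the line was not checked against marker genes here.

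The stimulated cells had received recombinant BMP9/10 at 1 ng/mL after 24 h without serum, and the unstimulated cells fresh medium after the same starvation. The duration of the ligand treatment is not stated in these sources. Each condition had 2 SMAD4 immunoprecipitates (IP) and 2 input DNA libraries, 8 samples in 4 groups. Sample titles of the stimulated immunoprecipitates contain an unexplained "KD", while their other labels name SMAD4-bound DNA from stimulated cells. Stimulated values below are those of libraries so labelled. The authors merged the libraries of a kind before peak calling, leaving 41044888 IP and 59057559 input tags (stimulated) and 52971023 IP and 72688953 input tags (unstimulated). The lists hold no value per replicate, so no difference between conditions could be set against replicate error, and no p-value is given.

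BMP9 and BMP10 signal in endothelium through the receptor ALK1 and SMAD1 and SMAD5, whereas TGF-beta signals mainly through SMAD2 and SMAD3. SMAD4 is the shared partner that joins either kind of receptor-activated SMAD on DNA. Fn1 encodes fibronectin, the scaffold on which other matrix proteins assemble, and Tgfbi encodes a secreted adhesion protein named for its induction by TGF-beta. Thbs1 encodes thrombospondin-1, an inhibitor of angiogenesis that can also activate latent TGF-beta. Ltbp2 encodes a microfibril protein of the latent TGF-beta binding protein family. Ccn1 (formerly Cyr61) and Ccn2 (formerly Ctgf) encode matricellular proteins, and both are also textbook targets of the Hippo pathway factors YAP and TEAD.

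Every one of the 6 genes had a stimulated peak. Of the 15 peaks, 12 had no unstimulated counterpart, as had 75% of all 4324 stimulated peaks outside mitochondrial DNA. Tgfbi had 5 stimulated peaks, Ccn1 had 3, Fn1, Ltbp2 and Ccn2 had 2 each, and Thbs1 had 1. Unstimulated peaks lay at Tgfbi (2) and Fn1 (1), and all 3 overlapped a stimulated peak. With 100 kb for each gene, 6 of 6 genes had a stimulated peak, against 36.5% of 21887 protein-coding genes. An unstimulated peak was present at 1 of 6, against 13.1% of protein-coding genes. A stimulated without an unstimulated peak was found at 5 of 6 genes, against 23.6% of protein-coding genes. That number depends on the window. An unstimulated peak was present at 2 genes with 200 kb for Fn1, and at 3 with 200 kb for every gene. These counts are a description without a test, and they follow the lengths of the lists. The genes and windows were also chosen with earlier results of these data known. When the stimulated list was shortened to the 1133 peaks of lowest p, 3 of the 15 peaks were left (1 each at Fn1, Tgfbi and Ccn1), as many as in the unstimulated list.

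**Figure D1:**
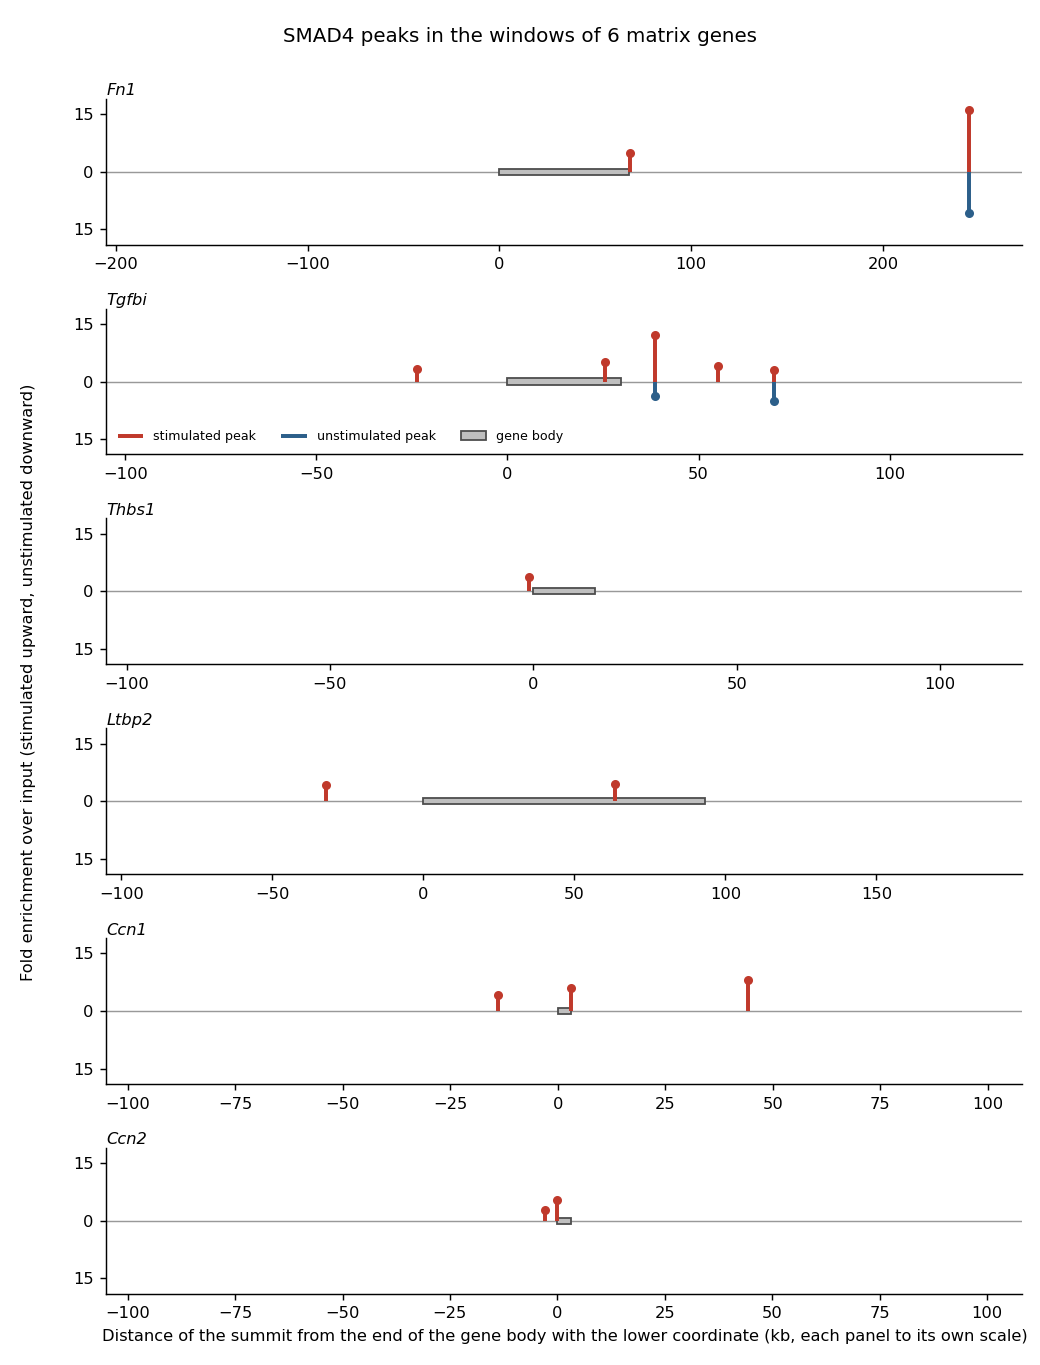
Called SMAD4 peaks around each gene, with the distance of the summit from the lower-coordinate end of the gene body in kb (x axis) and the authors' fold enrichment over input (y axis, stimulated peaks drawn upward and unstimulated peaks downward). The 2 tallest stimulated peaks, at Fn1 (16.2) and Tgfbi (12.3), both stand over an unstimulated peak, while Thbs1, Ltbp2, Ccn1 and Ccn2 have stimulated peaks only.

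The stimulated peaks at these genes had median fold enrichment and pileup close to those of the whole list, and a larger median width. Their median fold enrichment was 4.38 (range 2.88 to 16.2), beside 4.56 over the 4324 stimulated peaks outside mitochondrial DNA. The median IP pileup (tags covering the summit, each counted over 100 bp) was 0.731 per 1000000 IP tags, beside 0.707 over all. Pileup on this scale is called scaled pileup from here on. Peak widths ran from 105 to 430 bp with a median of 256 bp, beside 207 bp over all. Above the median fold enrichment of the list lay 7 of the 15 peaks, and 2 were among the 100 strongest of 4333.

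**Figure D2:**
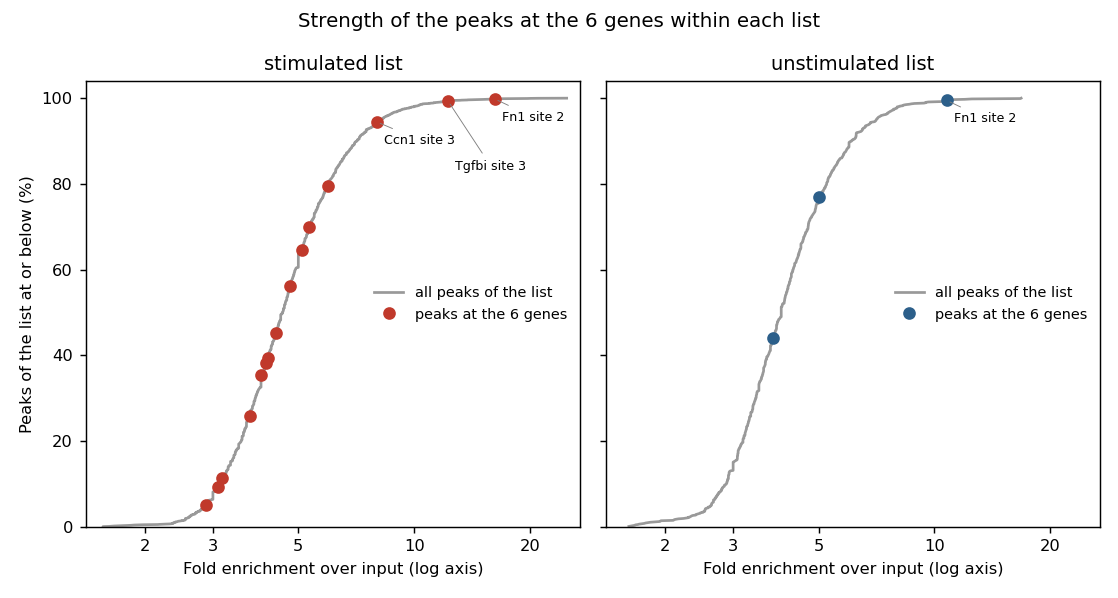
Cumulative distribution of the authors' fold enrichment (x axis, log scale) in the stimulated (left) and unstimulated (right) list, as the percentage of peaks at or below each value, with the peaks at the 6 genes as dots. The dots run along the whole stimulated curve, from 2.88 at Ccn2 to 16.2 at Fn1.

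Where the peaks lay relative to gene ends differed from gene to gene. A stimulated peak came within 1 kb of an end of the gene body at 3 of the 6 genes (Fn1, Ccn1 and Ccn2), against 4.25% of protein-coding genes. An unstimulated peak did so at 0 of the 6, against 0.918% of protein-coding genes. The Thbs1 peak missed this limit narrowly, with its edge 1016 bp from the gene body. Inside gene bodies lay 2 of the 15 stimulated peaks, in Tgfbi and in Ltbp2. The share of the whole list inside gene bodies was not counted, so this count has no comparison.

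RefSeq promoter sequences (GRCm38.p6) were matched by symbol for 3 of the 6 genes, Tgfbi, Ltbp2 and Ccn1. The 250 bases before the start of each are printed 5′ to 3′ on the strand of the gene, because a stimulated peak overlaps the Ccn1 sequence and none overlaps the other 2. For Ltbp2 the start site of the promoter set, 84876491, lies inside the gene body used here, which ends at 84876558. Its last printed bases therefore fall within that gene body. Capitals mark matches to 4 motifs searched on both strands: CAGAC, the core SMAD box; GGCGCC, a GC-rich SMAD element; CATTCC, the core TEAD element; and TGANTCA, the AP-1 element.
Ccn1 (chr3:145649986-145650235, minus strand): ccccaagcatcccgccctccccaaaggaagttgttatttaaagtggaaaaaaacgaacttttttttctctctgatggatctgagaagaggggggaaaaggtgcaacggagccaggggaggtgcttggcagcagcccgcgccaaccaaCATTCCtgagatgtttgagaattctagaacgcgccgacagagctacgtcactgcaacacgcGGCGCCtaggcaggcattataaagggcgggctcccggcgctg
Tgfbi (chr13:56609336-56609585, plus strand): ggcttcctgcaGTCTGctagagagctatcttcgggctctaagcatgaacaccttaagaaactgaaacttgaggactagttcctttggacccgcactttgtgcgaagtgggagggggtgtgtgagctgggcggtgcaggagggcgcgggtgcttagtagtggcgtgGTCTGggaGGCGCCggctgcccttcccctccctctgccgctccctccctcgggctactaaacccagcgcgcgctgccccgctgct
Ltbp2 (chr12:84876492-84876741, minus strand): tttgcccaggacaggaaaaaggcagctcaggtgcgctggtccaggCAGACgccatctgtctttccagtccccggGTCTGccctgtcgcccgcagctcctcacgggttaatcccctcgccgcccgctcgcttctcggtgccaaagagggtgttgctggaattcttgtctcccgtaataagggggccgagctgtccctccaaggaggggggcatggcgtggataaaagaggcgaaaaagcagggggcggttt

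The stimulated Ccn1 peak covered the last 129 of the 250 Ccn1 bases printed. Its summit lay 36 bp before the start site. Both matches in this sequence fall inside the peak: CATTCC at 103 to 98 bases before the start and GGCGCC at 42 to 37. In the Tgfbi sequence GTCTG, the reverse complement of CAGAC, occurs at 239 to 235 and at 85 to 81 bases before the start, and GGCGCC at 77 to 72. The Ltbp2 sequence holds CAGAC at 205 to 201 and GTCTG at 176 to 172. The matches do not overlap one another. Of 32536 distinct promoter sequences of this length, 42.2% hold CAGAC, 9.65% GGCGCC, 12.6% CATTCC and 6.73% TGANTCA, on either strand. No peak of either list overlapped the Tgfbi or Ltbp2 sequence, and the nearest stimulated summits were 23.6 kb and 29.7 kb from those start sites.

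Fn1 combined the strongest peak of the 6 genes with a weak peak at its end. The gene body runs from 71585473 to 71653280 on chromosome 1 (mm10). The strong stimulated peak (71830380 to 71830673) lay 177 kb beyond the higher-coordinate end, which in this minus-strand gene is the side of the promoter. It ranked 8 of 4333 by fold enrichment, and its unstimulated counterpart (71830401 to 71830644) ranked 7 of 1133. Scaled pileup there was 1.32 in stimulated cells (54 tags) and 0.774 in unstimulated cells (41 tags), a ratio of 1.70 with a counting interval of 1.11 to 2.62. Fold enrichment was 16.2 in stimulated and 10.8 in unstimulated cells. Despite the distance, Fn1 was the nearest protein-coding gene. The next stimulated peak on this chromosome, outside the window, lay 271 kb from Fn1, was nearest to Mreg and had 14 tags and a fold enrichment of 4.69.

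The second Fn1 peak sat 68 bp outside the gene body at that same end (71653348 to 71653483, 136 bp wide). It had 18 stimulated tags, a scaled pileup of 0.439 and a fold enrichment of 4.75. No unstimulated peak was called there. By pileup it belonged to the lowest of its list, with 7.66% of stimulated peaks below it, although 55.6% had a lower fold enrichment. Its local background of 0.0731 per 1000000 tags was below the median of 0.132 over the stimulated list.

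Tgfbi had the most peaks of the 6 genes, strung along chromosome 13 around a gene body from 56609586 to 56639359. Its strongest peak lay 8.76 kb past the far end of the gene (56647948 to 56648377, stimulated). Scaled pileup was 1.17 in stimulated cells (48 tags) and 0.434 in unstimulated cells (23 tags). The ratio of 2.69, with a counting interval of 1.61 to 4.64, ranked 2 of all 1078 pairs of peaks shared between the lists outside mitochondrial DNA. By pileup the unstimulated peak was among the lowest of its list, with 5.38% of unstimulated peaks below it. Fold enrichment was 12.3 in stimulated and 3.81 in unstimulated cells, and local background per 1000000 tags was 0.0731 in stimulated and 0.100 in unstimulated cells. The peak was 430 bp wide in the stimulated and 211 bp in the unstimulated list.

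A second Tgfbi site called in both lists went the other way by fold enrichment. It lay 40.0 kb from Tgfbi (56679197 to 56679457, stimulated) and was nearest to Smad5, which encodes a BMP-activated SMAD and whose body was 23.6 kb away. Fold enrichment was 3.1 in stimulated and 5 in unstimulated cells. Scaled pileup, however, was 0.731 in stimulated cells (30 tags) and 0.642 in unstimulated cells (34 tags). The ratio of 1.14 had a counting interval of 0.673 to 1.92, so no difference in scaled pileup was detectable at this depth. For pileup over local background the ratio was 0.588, with an interval of 0.348 to 0.990 that carries no error of the background. Local background per 1000000 tags was 0.219 in stimulated and 0.113 in unstimulated cells, a ratio above that of 96.0% of shared pairs. A lower fold enrichment in the stimulated list was found at 17.3% of shared pairs.

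The other 3 Tgfbi peaks were called in stimulated cells only. One lay inside the gene, 25.5 kb past its start (56634989 to 56635272), with 24 tags and a fold enrichment of 5.10. A second lay 25.2 kb past the far end (56664507 to 56664646), with 23 tags and 4.0. The third, 23.6 kb before the start (56585760 to 56585957), was the weakest with 18 tags and 3.17, and its summit fell on the last base of the peak. From the peak inside the gene outward past its far end, neighbouring summits were 13.1, 16.4 and 14.8 kb apart. Whether they are separate sites was not tested.

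Thbs1 had a single peak within its window, just before the gene. It ran from 118110584 to 118110860 on chromosome 2, with its summit 1.05 kb from the lower-coordinate end of the gene body (118111876 to 118127133), the promoter side of this plus-strand gene. With 36 tags its scaled pileup of 0.877 was the highest among the 12 stimulated peaks without an unstimulated counterpart. Fold enrichment was only 3.74, and local background of 0.217 per 1000000 tags was also the highest of those 12. A site just outside the window, 107.6 kb from Thbs1 and with Thbs1 as its nearest coding gene, was called in both lists. Its scaled pileup was 0.975 in stimulated cells (40 tags) and 0.585 in unstimulated cells (31 tags). Fold enrichment at that site was nearly equal, 3.42 in stimulated and 3.33 in unstimulated cells.

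Ltbp2 had 2 stimulated peaks and no unstimulated one around a gene body of 93.3 kb on chromosome 12 (84783212 to 84876558). The first lay inside the gene, 29.8 kb from its higher-coordinate end (84846714 to 84846969), with 27 tags, a scaled pileup of 0.658 and a fold enrichment of 4.38. The other (84750701 to 84750983) had 32 tags, a scaled pileup of 0.780 and a fold enrichment of 4.13. It was 32.3 kb from Ltbp2 and 3.67 kb from Npc2, which encodes a lysosomal cholesterol carrier. Npc2 was therefore its nearest gene.

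Ccn1, a gene body of only 3.02 kb on chromosome 3 (145646971 to 145649985), had 3 stimulated peaks and no unstimulated one. The promoter peak (145649924 to 145650114), whose sequence is printed above, had 30 tags, a scaled pileup of 0.731 and a fold enrichment of 5.96. A stronger peak by fold enrichment lay 41.1 kb upstream (145691043 to 145691147). It had 31 tags, a scaled pileup of 0.755 and a fold enrichment of 8, above 94.0% of its list, but was only 105 bp wide. The third peak, 13.9 kb downstream (145632960 to 145633095), had 24 tags and a fold enrichment of 4.17. None of the 1133 unstimulated peaks lay closer to Ccn1 than 3554 kb, and the next stimulated peak was 170.5 kb away, nearest to Ddah1.

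Ccn2 had its peaks close together at the gene. The stronger (24595299 to 24595689) covered the lower-coordinate end of the gene body (24595442 to 24598683) on chromosome 10, where this plus-strand gene starts, with its summit 65 bp outside. It had 31 tags, a scaled pileup of 0.755 and a fold enrichment of 5.33, and at 391 bp it was the second widest of the 15 peaks. The other (24592524 to 24592665) lay 2.91 kb from the gene body, with 22 tags and a fold enrichment of 2.88, the lowest of the 15. The next stimulated peak outside the window was 221 kb away, nearest to Moxd1. Both CCN genes carried a stimulated peak over the start of the gene, and neither had an unstimulated peak within 100 kb. Such an unstimulated peak was present at only 13.1% of protein-coding genes.

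The comparison of conditions asked whether SMAD4 signal at these genes was larger with the ligand. At all 3 shared sites the ratio of scaled pileup was above 1, as at 98.4% of all 1078 shared pairs. The median ratio of the 3 was 1.70, beside 1.47 (interquartile range 1.29 to 1.68) over all pairs. The counting interval lay above 1 at 2 of the 3, Fn1 and the strong Tgfbi site, against 36.6% of all pairs. This count depends on the windows, since the Fn1 pair was included only through the 200 kb window of that gene. With 50 kb for every gene 1 of 2 shared sites had such an interval, and with 200 kb for every gene 4 of 5. The interval of the strong Tgfbi site also lay above the median of all pairs, and those of the other 2 sites did not. How many of all pairs had an interval above that median was not counted. Without scaling to depth the Fn1 interval reached below 1 (ratio 1.32, 0.861 to 2.03). The direction at the Tgfbi site nearest to Smad5 rested on the scale: its ratio was 0.882 (0.522 to 1.49) without scaling to depth and 0.588 (0.348 to 0.990) for pileup over local background.

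**Figure D3:**
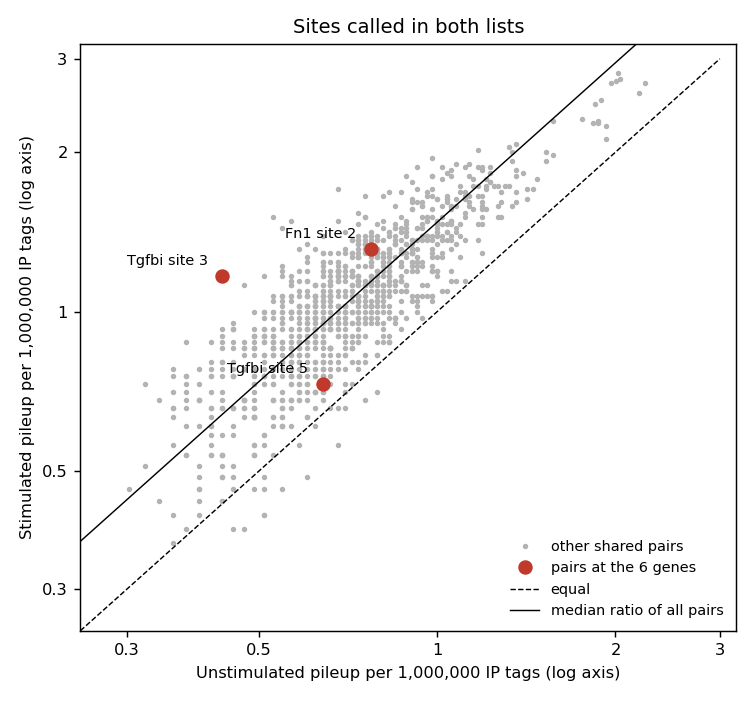
Stimulated (y axis) against unstimulated (x axis) IP pileup per 1000000 IP tags, both on log axes, for the 1078 pairs of peaks called in both lists; the dashed line marks equality and the solid line the median ratio of 1.47. Fn1 (1.70) lies above the solid line, the Tgfbi site nearest to Smad5 (1.14) lies near equality, and the strong Tgfbi site (2.69) stands at the upper left edge of the cloud.

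Of the 15 stimulated peaks, 3 overlapped an unstimulated one (20%, exact binomial 95% interval 4.33 to 48.1), beside 25% of all 4324. The 12 others (75% of all 4324 also had no counterpart) had scaled pileups from 0.439 to 0.877, with a median of 0.621, beside 0.633 over all 3245 stimulated peaks without a counterpart. No unstimulated value was measured at these 12 sites, so no ratio is given for them. Scaled pileup of called unstimulated peaks started at 0.264 with a median of 0.698, and that of called stimulated peaks started at 0.268 with a median of 0.707.

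Among these 12, the Thbs1 peak had a scaled pileup of 0.877 with a counting interval of 0.614 to 1.21. At the Ccn1 promoter it was 0.731 (0.493 to 1.04), and at the upstream Ccn1 peak and the Ccn2 start 0.755 (0.513 to 1.07 at each). The second Ccn2 peak had 0.536 (0.336 to 0.812). The lowest values, 0.439 (0.260 to 0.693), were those of the Fn1 end peak and of the Tgfbi peak before the gene. The intervals of all 12 peaks overlapped one another.

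**Figure D4:**
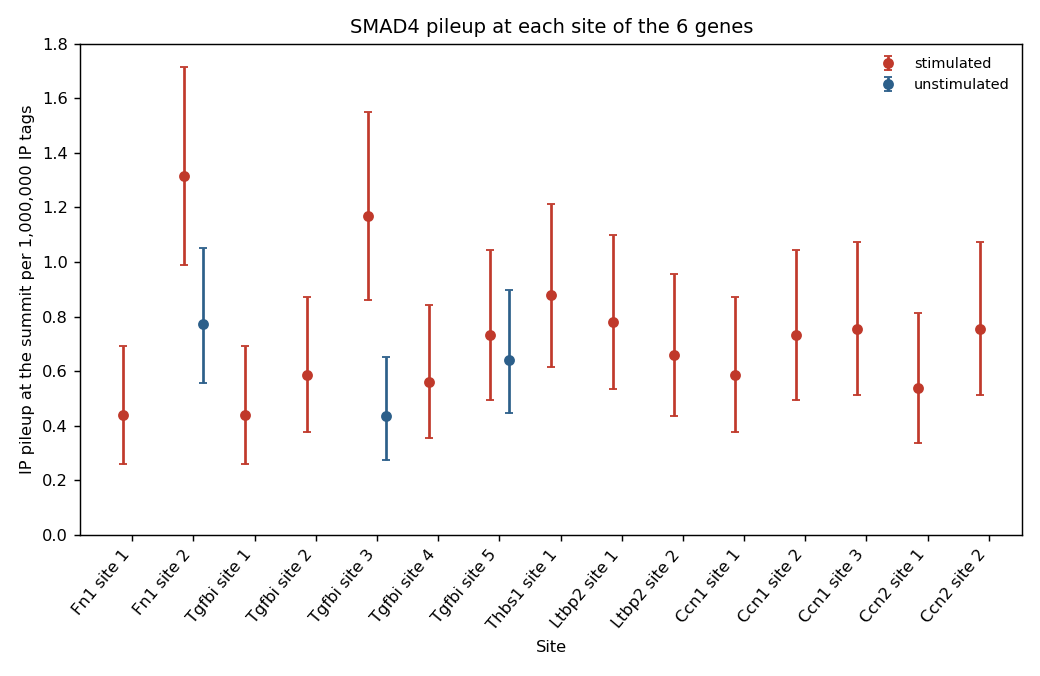
IP pileup at the summit per 1000000 IP tags (y axis) at each of the 15 sites (x axis, numbered along the chromosome), stimulated left and unstimulated right, with exact Poisson 95% intervals as bars. The strong Fn1 and Tgfbi sites (1.32 and 1.17) stand highest, and 12 of the 15 sites have a stimulated point only because no unstimulated peak was called there.

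Relatives of these genes were counted in the same way. Within 100 kb, 7 of 12 family relatives had a stimulated peak (58.3%, against 36.5% of protein-coding genes) and 2 an unstimulated one (16.7%, against 13.1%). The median of the strongest fold enrichment per gene was 5.10, beside 5 over all protein-coding genes with a peak and 5.04 for the 6 genes. Among CCN genes, Ccn4 had a peak 7.67 kb away called in both lists (scaled pileup 1.46 in stimulated and 0.944 in unstimulated cells), whereas Ccn3, Ccn5 and Ccn6 had none. Among latent TGF-beta binding protein genes, Ltbp4 had a stimulated peak inside its body (fold enrichment 5.10). Ltbp1 had 3 stimulated peaks, 1 of them inside (3.43) and the others nearest to Rasgrp3 (4.90 and 4.32). The 2 of Ltbp3 were nearest to other genes. Thbs2 had 1 stimulated peak, 24.8 kb away, and those within reach of Thbs3 and Thbs4 were nearest to other genes. Comp and Postn, the closest relative of Tgfbi, had no peak.

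Of 23 other genes for matrix, cross-linking, protease and protease inhibitor proteins, 15 had a stimulated peak (65.2%) and 3 an unstimulated one (13.0%), against the same 36.5% and 13.1%. The median of their strongest fold enrichments was 5. Plat, which encodes tissue plasminogen activator, had 2 stimulated and 3 unstimulated peaks. Sparc, which encodes a collagen-binding matricellular protein, had 4 stimulated peaks and no unstimulated one, the strongest inside the gene (57 tags, scaled pileup 1.39, fold enrichment 6.52). Hspg2, the perlecan gene, also had 4 stimulated peaks, 3 of them inside. Bgn, the biglycan gene, had 3 stimulated peaks and 1 unstimulated one, and Timp1, which encodes a metalloproteinase inhibitor, had 2 and 1. Serpine2, Plau and Loxl1 had 3 stimulated peaks each, Tnc and Lamc1 had 2 each, and Timp3, Mmp9, Fbn1, Fbln5 and Nid1 had 1 each, all without an unstimulated peak within 100 kb. Of these genes, Timp1, Timp3, Mmp9 and Fbn1 were the nearest gene to none of their peaks. No peak lay within 100 kb of Timp2, Mmp2, Mmp14, Adamts1, Lox, Loxl2, Vcan or Eln. No test was made of these lists, and their genes were not matched to others on length or gene density.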

How the data were processed

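Per the file headers, the authors called narrow peaks with MACS2 2.1.0.20140616, once per condition, on 2 merged IP libraries against 2 merged inputs. The q cutoff was 0.01, with at most 1 tag per position. The headers give a fragment length of 100 bp, shorter than the tag sizes of 140 bp (stimulated) and 146 bp (unstimulated). mm10 and HOMER are named in the submitters' processing notes. An aligner was not given in these sources. The band width setting was 200 (stimulated) and 300 (unstimulated), per the file headers. The deposited pileup is a coverage signal without scaling to depth. The deposited fold enrichment is a ratio of pileup to local background, with 1 added to each. The deposited −log10 p and q values compare IP with input. Solving the fold enrichment for its denominator gave the local background, and a Poisson tail on it came within 1% of the deposited −log10 p for all 4333 and all 1133 peaks.

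Summits were assigned to windows with Python 3.11.15, pandas 2.3.3 and scipy 1.17.1, and gene positions and promoters came from RefSeq (GRCm38.p6, the assembly behind mm10). Peaks were counted as shared at an overlap of 1 bp, and pairs were made by closest summits. Pileup ratios carry exact binomial (Clopper-Pearson) 95% intervals and single pileups exact Poisson 95% intervals. These intervals cover counting error only, in libraries without molecular identifiers and at summits, which are local maxima. Every peak in the windows is reported, and the genes of the other lists are named with and without a peak within 100 kb. A further gene of the list of matrix and protease genes is not reported here. The ratio intervals and the pairing were tested on simulated data. The 6 genes, the other lists and the windows were chosen with earlier results of these data known.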

Additional observations from a re-analysis of the deposited data

How the results depend on the processing

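Of 58 values recomputed under alternatives, 40 stayed on the same side or within the allowed range. With a −log10 q of at least 10, 5 stimulated peaks were left, 1 with and 4 without a counterpart, and 1 shared site had an interval above 1. At equal list length, 3 stimulated peaks at 3 genes were left, 1 without a counterpart. Both settings remove peaks by construction. A window of 200 kb for every gene gave 5 unstimulated peaks, 5 stimulated peaks with a counterpart and 4 intervals above 1, and a window of 50 kb gave 1 gene with an unstimulated peak and 1 interval above 1. Requiring an overlap of 50% of each peak left 1 counterpart and 1 interval above 1. Pileup without scaling to depth gave 1 interval above 1, with the ratio at Fn1 at 1.32. The ratio at the Tgfbi site nearest to Smad5 turned to 0.882 without scaling and to 0.588 (0.348 to 0.990) over local background, where its background differed as given above. Counts without a counterpart were recomputed by choices made after seeing the data. No replicate could be left out, since the libraries were merged. No paired analysis was possible because each condition has a single pooled list.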

Other observations

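The strong Fn1 site was set beside the other shared pairs by pileup in both lists, over the 2 conditions. The 3 closest pairs lay inside Frmd4a (54 stimulated and 41 unstimulated tags, as at Fn1), inside Me3 and 23.5 kb from Ptprc (55 and 41 tags each). Plat held an unstimulated peak inside its gene body (29 tags, fold enrichment 4.29) that overlapped no stimulated peak. The stimulated Plat peak 25.2 kb from the gene was nearest to Ap3m2 and had 46 tags and a fold enrichment of 9.22, and its unstimulated counterpart had 30 tags and 3.13.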
